A study of Mus musculus with 15 samples.

Results

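Genes of hepatic stellate cells and of the matrix they make, 10 in number, were followed in mouse liver across 3 diets. They are Hgf, Bmp10, Bmp5 and Cygb (factors of stellate cells), Lum and Dcn (proteoglycans), Mmp14 (a matrix protease), and Col1a1, Col3a1 and Col15a1 (collagens). The members were chosen by name, with earlier results of these data known. Counts of them beside the share of all genes are therefore a description and no test of the set. They are 10 of the 25731 genes summed from the deposited tables, and all 10 were among the 13967 genes with enough reads to be tested. Livers of 15 C57BL/6 mice, the strain of all groups, were collected after 3 days of diet, and total RNA was sequenced. Mice fed the ketogenic diet (5 livers) and the high-fat diet (5 livers) were on it at 12 weeks of age, and mice fed chow (5 livers) were the controls, with no age given for them. The sex of the mice, the composition of the diets and any batch are not stated in the labels. Each library was taken as 1 mouse, and nothing in the labels says more on how the replicates were raised, so p values measure the spread between these samples.

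Hepatic stellate cells lie between hepatocytes and the sinusoidal endothelium, store vitamin A, and are the main source of fibrillar collagen when the liver scars. In the healthy liver they are known to secrete hepatocyte growth factor, which acts on hepatocytes through the receptor Met, and ligands of the bone morphogenetic protein (BMP) family, which act on endothelium and hepatocytes through type I and type II receptors and SMAD proteins. Collagen fibrils are bound and spaced by small leucine-rich proteoglycans such as lumican and decorin, and are cut by membrane-bound and secreted metalloproteases.

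The growth factor Hgf, the ligand Bmp10 and the protease Mmp14 were higher on the ketogenic diet and the collagen Col15a1 was lower, so the 250 bases before the start sites of these 4 genes are shown. The sequences are RefSeq promoters on GRCm38.p6, plus strand, 5′ to 3′, and capitals mark matches to the motifs searched.
Hgf (chr5:16553245-16553494): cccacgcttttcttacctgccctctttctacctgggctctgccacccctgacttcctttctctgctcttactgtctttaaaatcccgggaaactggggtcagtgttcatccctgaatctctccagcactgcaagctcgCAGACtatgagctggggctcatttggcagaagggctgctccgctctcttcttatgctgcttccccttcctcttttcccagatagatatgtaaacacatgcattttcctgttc
Bmp10 (chr6:87428744-87428993): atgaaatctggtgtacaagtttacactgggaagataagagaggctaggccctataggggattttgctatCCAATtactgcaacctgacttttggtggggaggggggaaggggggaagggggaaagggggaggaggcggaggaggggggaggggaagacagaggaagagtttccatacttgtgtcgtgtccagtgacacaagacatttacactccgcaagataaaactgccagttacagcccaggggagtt
Mmp14 (chr14:54431348-54431597): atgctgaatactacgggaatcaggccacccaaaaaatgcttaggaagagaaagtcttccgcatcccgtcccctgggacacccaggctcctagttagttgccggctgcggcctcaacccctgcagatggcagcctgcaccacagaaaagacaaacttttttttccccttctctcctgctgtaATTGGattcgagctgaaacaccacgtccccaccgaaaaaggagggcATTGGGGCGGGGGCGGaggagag
Col15a1 (chr4:47207762-47208011): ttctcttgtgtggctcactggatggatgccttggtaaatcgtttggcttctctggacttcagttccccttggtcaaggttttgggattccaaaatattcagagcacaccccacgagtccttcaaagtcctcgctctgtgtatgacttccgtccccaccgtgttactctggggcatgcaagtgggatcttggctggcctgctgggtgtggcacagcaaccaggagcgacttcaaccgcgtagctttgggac
Both strands were searched for 7 motifs, which were the TATA box (TATAAA), the box bound by NF-Y (CCAAT), the GC box bound by Sp1 (GGGCGG), the AP-1 site (TGANTCA), the E-box bound by basic helix-loop-helix factors (CACGTG), a SMAD element (GTCTG) and the direct repeat bound by PPAR and RXR. The Hgf window held 1 SMAD element, at bases -112 to -108 before the start, a motif found in 42.2% of 32851 promoters of the same length. Another Hgf promoter is listed (chr5:16553651-16553900) and not printed, and its window held 1 SMAD element, also at -112 to -108. The Bmp10 window held 1 CCAAT box, at -181 to -177, and 33.8% of promoters hold one. The Mmp14 window held CCAAT boxes at -69 to -65 and -23 to -19 and GC boxes at -19 to -14 and -13 to -8, where the first GC box shares its first base with the second CCAAT box. GC boxes stood in 32.7% of promoters. The Col15a1 window held none of the 7 motifs, and the other motifs were found in 12.4% (TATAAA), 6.75% (AP-1), 6.02% (E-box) and 0.0335% (the PPAR repeat) of promoters. The promoter table has entries for 6 of the 10 genes and none for Col1a1, Lum, Dcn and Cygb.

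Library totals ranged between 34707597 and 50914494 reads with ketogenic feeding, 30121672 and 44764257 with high-fat feeding and 30190806 and 43688344 with chow. Levels are given as normalised CPM, the reads of a gene over the size of its library after TMM scaling (a factor that lines up the bulk of genes between libraries). Differences are log2 fold changes from edgeR's quasi-likelihood fit of all 15 libraries, each with its standard error and a p value adjusted over all genes tested, and a gene was called at an adjusted p under 0.05. The 3 comparisons share libraries, since each diet enters 2 of them, so they are not independent. Scaling by library totals alone changed the share of higher genes among all calls to 68.5%, against 52.6% with TMM, for ketogenic over chow, and to 70.6%, against 50.1%, for ketogenic over high-fat. It moved the median log2 fold change of all genes by less than 0.1. These are whole-liver libraries, in which a change in the number of cells of a type and a change in RNA per cell cannot be told apart.

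Of the 10 genes, 5 rose and 1 fell on the ketogenic diet compared with chow. Hgf, Bmp10, Lum, Mmp14 and Dcn rose and Col15a1 fell. Among all genes tested, 16.2% rose and 14.6% fell in that comparison. On the high-fat diet 0 of the 10 rose and 3 fell compared with chow (Col15a1, Lum and Mmp14), where 8.30% of all genes rose and 7.32% fell. Without high-fat liver 11 or without high-fat liver 12 that count was 1, Col15a1. Hgf and Bmp10 were not called there, at 0.10 ± 0.20 and -0.07 ± 0.15 (log2 fold change ± SE; adjusted p = 0.781 and 0.795). Between the 2 fat-rich diets 7 of the 10 were higher on the ketogenic one (Lum, Mmp14, Bmp10, Hgf, Dcn, Cygb and Bmp5) and 0 were lower, where 13.1% of all genes were higher and 13.0% lower. Col1a1 and Col3a1 passed in none of the 3 comparisons. For both counts of 0, edgeR at an unadjusted p under 0.05 and DESeq2 at an adjusted p under 0.05 gave 0 as well.

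**Figure D1:**
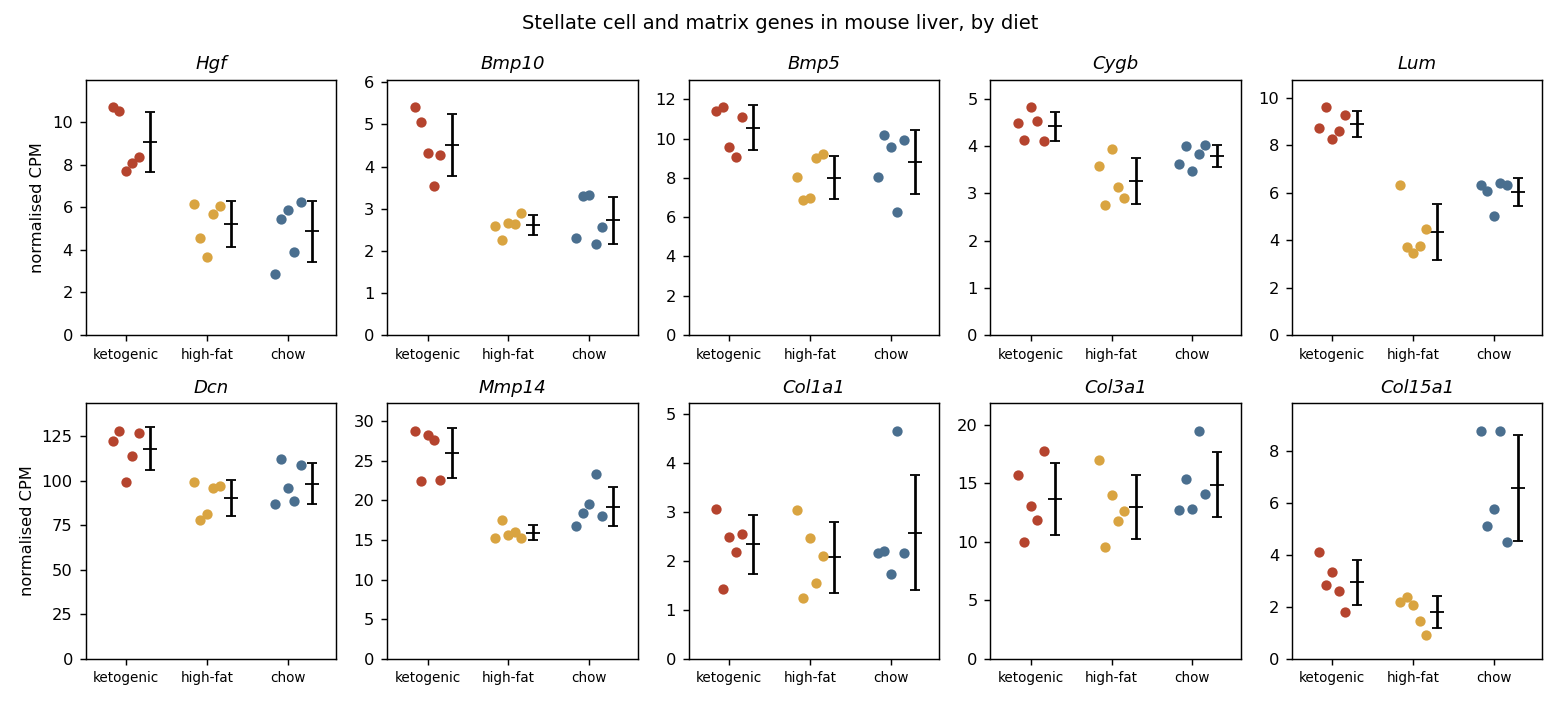
Normalised CPM (vertical axis, linear and starting at 0) of each of the 10 genes in every liver, by diet (horizontal axis, 5 livers each). Points are livers, and the bar beside them is the mean ± SD. Every ketogenic liver lies above every chow and every high-fat liver for Hgf, Bmp10, Lum and Cygb, and every ketogenic and high-fat liver lies below every chow liver for Col15a1.

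Hgf encodes hepatocyte growth factor, a mitogen for hepatocytes that stellate cells release. Its normalised CPM was 10.7, 10.5, 7.69, 8.10 and 8.37 in the ketogenic livers. It was 6.14, 4.57, 3.65, 5.70 and 6.08 in the high-fat livers and 2.89, 5.45, 5.86, 3.89 and 6.24 in the chow livers. All ketogenic livers were higher than all others, and the high-fat and chow livers overlapped. The mean was 9.09 ± 1.43 on the ketogenic diet and 4.87 ± 1.42 on chow (SD, n = 5 each), a 1.87-fold increase (95% interval 1.41 to 2.47; log2 fold change 0.90 ± 0.19, adjusted p = 0.00184). Against the high-fat diet, with a mean of 5.23 ± 1.09, the ketogenic level was 1.74-fold higher (0.80 ± 0.19, adjusted p = 0.00583). Hgf lies at chr5:16553495-16620152 on the plus strand of GRCm38, and the protein-coding transcript Hgf-204 took 90.9% of its reads on average over the 15 libraries. The unnamed loci Gm43489 and Gm42975 overlap it on the same strand and held 132.1 and 68.0 reads in all libraries together, against 98 to 455 reads per library for Hgf.

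Bmp10 encodes a secreted BMP ligand that binds the endothelial receptor ALK1. Its normalised CPM was 5.41, 5.05, 4.31, 3.54 and 4.27 in the ketogenic livers. It was 2.59, 2.25, 2.66, 2.63 and 2.90 in the high-fat livers and 2.30, 3.30, 3.32, 2.15 and 2.56 in the chow livers. The lowest ketogenic liver, at 3.54, lay just above the highest chow liver, at 3.32, so the ketogenic group overlapped with neither of the others. The rise was 1.65-fold over chow (95% interval 1.34 to 2.02; log2 fold change 0.72 ± 0.14, adjusted p = 0.000729) and 1.73-fold over the high-fat diet (0.79 ± 0.14, adjusted p = 0.000556). Between 73 and 229 reads per library stand behind these values, and the gene (chr6:87428994-87437677) has a single transcript in the tables.

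Bmp5, another BMP ligand (chr9:75775364-75900310), had 11.4, 11.6, 9.57, 9.06 and 11.1 normalised CPM in the ketogenic livers. It had 8.04, 6.85, 6.97, 9.00 and 9.23 in the high-fat livers and 8.05, 10.2, 9.56, 6.27 and 9.92 in the chow livers. The 3 groups overlapped, and the chow livers spread most, between 6.27 and 10.2. The ketogenic level was 1.32-fold the high-fat level (log2 fold change 0.40 ± 0.12, adjusted p = 0.0249). That call was lost when any one of ketogenic livers 2, 3 and 8 or high-fat livers 10 and 11 was left out, or when only protein-coding transcripts were summed, with adjusted p values up to 0.0688. Against chow the difference of 0.26 ± 0.12 missed the threshold (adjusted p = 0.123), with an interval whose upper bound was 1.43-fold.

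Cygb encodes cytoglobin, an oxygen-binding globin that marks stellate cells in liver (chr11:116645595-116654313, minus strand). Its normalised CPM was 4.49, 4.13, 4.83, 4.53 and 4.12 in the ketogenic livers. It was 3.58, 2.76, 3.95, 3.14 and 2.90 in the high-fat livers and 3.63, 4.01, 3.47, 3.83 and 4.02 in the chow livers. The ketogenic livers were above all others, narrowly so over the highest chow liver, with a lowest value of 4.12 against 4.02. The difference from the high-fat diet was called (1.35-fold, log2 fold change 0.43 ± 0.11, adjusted p = 0.00601). The difference from chow, 0.22 ± 0.11, was not (adjusted p = 0.122), although the groups did not overlap. Cygb was the least variable of the 10 genes, with a biological coefficient of variation of 0.0938. It shares genomic sequence with Prcd on the opposite strand, which had 32 reads in all libraries together.

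Lum and Dcn encode lumican and decorin, small leucine-rich proteoglycans of collagen fibrils, and they are neighbours on chromosome 10 (Dcn at chr10:97479609-97518143 and Lum at chr10:97565128-97572703, both on the plus strand). They lie 46984 bases apart, with 0 other genes of the tables between them. Lum had 8.71, 9.60, 8.27, 8.58 and 9.25 normalised CPM in the ketogenic livers. It had 6.34, 3.72, 3.44, 3.75 and 4.48 in the high-fat livers and 6.31, 6.07, 5.03, 6.42 and 6.31 in the chow livers. Ketogenic livers formed a narrow group above all others, while 4 of the 5 high-fat livers lay below every chow liver and high-fat liver 9 lay among them. Lum rose 1.47-fold over chow on the ketogenic diet (log2 fold change 0.56 ± 0.13, adjusted p = 0.00274). On the high-fat diet it fell by 0.47 ± 0.13 on the log2 scale (adjusted p = 0.0234). The distance between the fat-rich diets was therefore the widest for Lum among the 10 genes, at 2.04-fold (95% interval 1.69 to 2.48; 1.03 ± 0.13, adjusted p = 2.02e-05). The high-fat fall lost its call without any one of high-fat livers 10, 11 and 12 or chow liver 15, and in a fit of those 2 diets alone, with adjusted p values up to 0.0666.

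Dcn was the most abundant of the 10 genes. It had 122, 128, 99.0, 114 and 127 normalised CPM in the ketogenic livers. It had 99.2, 78.1, 81.1, 96.0 and 97.1 in the high-fat livers and 86.9, 112, 95.7, 88.4 and 109 in the chow livers. The groups overlapped, through ketogenic liver 4 at 99.0. The ketogenic level was 1.31-fold the high-fat level (log2 fold change 0.39 ± 0.091, adjusted p = 0.00479), and 1.20-fold the chow level (0.26 ± 0.091, adjusted p = 0.036). The call against chow was lost in 9 of the 23 alternatives, among them the omission of any one of ketogenic livers 2, 3 and 8 or chow livers 15, 17 and 18, with adjusted p values up to 0.095. The high-fat and chow means, 90.3 ± 9.90 and 98.4 ± 11.6 (SD, n = 5 each), were not called different (-0.12 ± 0.091, adjusted p = 0.386).

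Mmp14 encodes membrane type 1 matrix metalloprotease, which cuts fibrillar collagen at the cell surface and activates the precursor of MMP2 (chr14:54431612-54445364). Its normalised CPM was 28.8, 22.5, 28.3, 27.7 and 22.6 in the ketogenic livers. It was 15.2, 17.5, 15.7, 16.0 and 15.2 in the high-fat livers and 16.8, 18.4, 19.5, 23.3 and 18.0 in the chow livers. Of the ketogenic livers 3 lay at 27.7 or above and 2 at 22.5 and 22.6, and chow liver 18, at 23.3, reached above the lower pair. The rise over chow was 1.35-fold (log2 fold change 0.44 ± 0.089, adjusted p = 0.00105) and the excess over the high-fat diet, with no overlap, was 1.63-fold (0.71 ± 0.090, adjusted p = 1.95e-05). On the high-fat diet Mmp14 fell by 0.27 ± 0.091 on the log2 scale compared with chow (adjusted p = 0.0489). That call was lost in 12 of the 23 alternatives, with adjusted p values up to 0.323, among them total-count scaling and the omission of any one of ketogenic livers 4 and 6, high-fat livers 9, 11, 12 and 14 or chow livers 16, 17, 18 and 19. Of the Mmp14 reads, a retained-intron transcript (Mmp14-207) took 9.16 ± 1.09% with ketogenic feeding, 13.3 ± 2.21% with high-fat feeding and 8.89 ± 1.35% with chow (SD, n = 5 each). The lowest high-fat share, 10.9%, lay above the highest chow share, 10.6%, and just under the highest ketogenic share, 11.0%. The program splits shared reads between transcripts by an estimate, so these shares are a description.

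**Figure D2:**
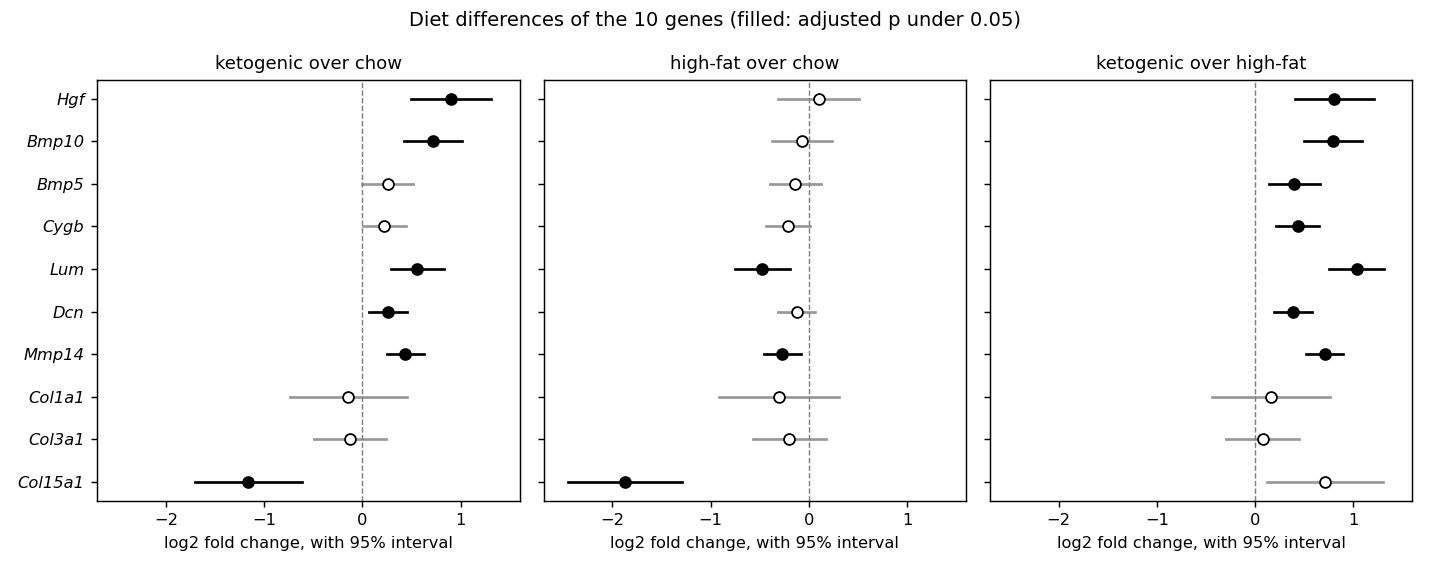
Log2 fold change (horizontal axis) of each of the 10 genes (rows) for ketogenic over chow, high-fat over chow and ketogenic over high-fat (panels), with 95% intervals. Filled points have an adjusted p under 0.05. The stellate cell factors, proteoglycans and Mmp14 lie right of 0 in the panels for ketogenic over chow and ketogenic over high-fat, Col1a1 and Col3a1 straddle 0 in all 3, and Col15a1 lies at -1.16 for ketogenic over chow and -1.87 for high-fat over chow.

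Col15a1 encodes the chain of type XV collagen, a collagen of the basement membrane zone that forms no fibrils of the type I kind (chr4:47208161-47313167). Its normalised CPM was 4.13, 2.83, 3.36, 2.62 and 1.81 in the ketogenic livers. It was 2.19, 2.37, 2.06, 1.44 and 0.908 in the high-fat livers and 8.76, 5.12, 5.78, 8.78 and 4.50 in the chow livers. All livers on either fat-rich diet were lower than all chow livers, and chow livers 15 and 18 stood well above the other 3. On the high-fat diet the level was 3.65-fold lower than on chow (log2 fold change -1.87 ± 0.27, adjusted p = 0.000445). On the ketogenic diet it was 2.23-fold lower (-1.16 ± 0.26, adjusted p = 0.00296), a call that was lost when differences in effective transcript length were put into the fit (-1.06, adjusted p = 0.0678). The 2 fat-rich diets overlapped and were not called different (0.71 ± 0.28, adjusted p = 0.0744). That difference passed with DESeq2, with total-count scaling or without ketogenic liver 8, at adjusted p values down to 0.0249. Reads were split among several transcripts, and the main one, Col15a1-202, held between 1.43e-07% and 85.1% of them across the libraries, so the gene sum rather than any transcript was compared.

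Col1a1 and Col3a1 encode chains of type I and type III collagen, the fibrillar collagens of liver scars (chr11:94936224-94953042 and chr1:45311538-45349706). Col1a1 had 3.05, 1.43, 2.48, 2.17 and 2.54 normalised CPM in the ketogenic livers. It had 3.04, 1.23, 2.47, 1.54 and 2.09 in the high-fat livers and 2.15, 2.19, 1.73, 4.65 and 2.15 in the chow livers. The groups overlapped throughout, and chow liver 18 stood alone at 4.65. The ketogenic to chow ratio had a 95% interval of 0.599 to 1.37 (log2 fold change -0.14 ± 0.28, adjusted p = 0.748), the high-fat to chow ratio one of 0.532 to 1.23 (-0.30 ± 0.29, adjusted p = 0.515) and the ketogenic to high-fat ratio one of 0.736 to 1.70 (0.16 ± 0.29, adjusted p = 0.715). Col1a1 had 41 to 158 reads per library and a biological coefficient of variation of 0.295, the highest of the 10 genes. Changes that lie within these intervals were not excluded. Without chow liver 18 the value for ketogenic over chow was 0.18 and that for high-fat over chow 0.02, still not called.

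Col3a1 had 15.7, 10.0, 13.1, 11.9 and 17.8 normalised CPM in the ketogenic livers. It had 17.0, 9.58, 14.0, 11.8 and 12.6 in the high-fat livers and 12.7, 15.4, 12.8, 19.5 and 14.1 in the chow livers. These groups overlapped as well, and chow liver 18 was again the highest of all. The intervals were 0.712 to 1.18 for ketogenic over chow (adjusted p = 0.639), 0.675 to 1.13 for high-fat over chow (adjusted p = 0.479) and 0.816 to 1.36 for ketogenic over high-fat (adjusted p = 0.786). A 2-fold change of either collagen, up or down, lay outside each of these 6 intervals.

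Counting the genes whose livers did not overlap at all gave 5 of 10 for ketogenic against chow (Hgf, Bmp10, Cygb and Lum above, Col15a1 below), where 22.3% of all genes tested did not overlap. It gave 1 of 10 for high-fat against chow (Col15a1 below), where 10.3% did not. It gave 5 of 10 for ketogenic against high-fat (Hgf, Bmp10, Cygb, Lum and Mmp14, all above), where 17.0% did not.

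Levels of different genes can be set beside each other only per length, for which the deposited TPM was summed over each gene's transcripts and averaged over the 15 livers. Dcn was highest at 74.7 ± 20.2 TPM (SD over 15 livers), followed by Mmp14 at 12.8 ± 4.43, and each was above the next gene in all 15 livers. Col3a1 came next at 5.54 ± 1.40 TPM, above the next gene in 14 of 15 livers. Its 737-base transcript Col3a1-205 held 10% of its reads and averaged 2.96, 2.59 and 2.79 TPM on the ketogenic, high-fat and chow diets. The 5564-base Col3a1-201 held 89.5% and averaged 2.95, 2.17 and 2.55 TPM, so this place rests on the short transcript too. Lum (3.15 ± 1.37), Bmp5 (2.77 ± 0.826), Hgf (2.44 ± 1.17) and Col15a1 (2.13 ± 1.26) came after Col3a1. Lum was above Bmp5 in 9 livers, Bmp5 above Hgf in 12, Hgf above Col15a1 in 10 and Col15a1 above Cygb in 7, so these neighbours did not keep their order within the spread. Cygb at 1.91 ± 0.515 TPM was above Bmp10 in all 15 livers, Bmp10 at 0.825 ± 0.373 was above Col1a1 in 14, and Col1a1 was last at 0.461 ± 0.181 TPM. TPM is not scaled between libraries by TMM, and the median ratio of mean TPM over all genes stood at 0.31 on the log2 scale for ketogenic over chow and at 0.30 for ketogenic over high-fat, so TPM was used for this order alone.

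Livers of the same diet also differed from each other, and the genes did not all vary together. After the mean of each diet was subtracted from log2 CPM, 45 pairs of the 10 genes were correlated over the 15 livers, with 100000 permutations within diets and Benjamini-Hochberg adjustment over the 45 pairs. Col1a1 and Col3a1 were tied most closely, with Pearson r = 0.90 (permutation p = 2e-05, adjusted p = 0.0009) and Spearman rho = 0.91 (permutation p = 2e-05, adjusted p = 0.0009). Without the 2 livers farthest from the median of Col1a1, r was 0.85. Another set held Dcn, Bmp5, Hgf and Bmp10. Within it Dcn and Bmp5 gave r = 0.80 (permutation p = 0.00165, adjusted p = 0.0282) and rho = 0.79 (permutation p = 0.00253, adjusted p = 0.0569), with r = 0.80 without the 2 livers farthest from the median of Dcn. Dcn and Hgf gave r = 0.78 (permutation p = 0.00251, adjusted p = 0.0282) and rho = 0.74 (permutation p = 0.0087, adjusted p = 0.114), with r = 0.82 without those livers. Bmp5 and Bmp10 gave r = 0.77 (permutation p = 0.00213, adjusted p = 0.0282) and rho = 0.66 (permutation p = 0.0126, adjusted p = 0.114), with r = 0.68 without the 2 livers farthest from the median of Bmp5. The rank correlations of these last 3 pairs missed the threshold after adjustment. Of the same genes, Bmp5 and Hgf (r = 0.74), Bmp10 and Hgf (r = 0.63) and Dcn and Bmp10 (r = 0.53) did not pass. Their adjusted p values by permutation were 0.0842, 0.179 and 0.276. Over the 45 pairs r ranged between -0.63 and 0.90 with a median of 0.02, and 25 pairs were positive, so the 10 genes did not vary as 1 block among mice of a diet. Among the 5 that rose on the ketogenic diet over chow, Dcn, Hgf and Bmp10 were positive with each other, at 0.53 to 0.78, while Mmp14 was negative with the other 4, at -0.51 to -0.10, and none of those 4 values passed (adjusted p = 0.276 to 0.934). Hgf had r = -0.19 with Col1a1 and 0.00 with Col3a1.

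**Figure D3:**
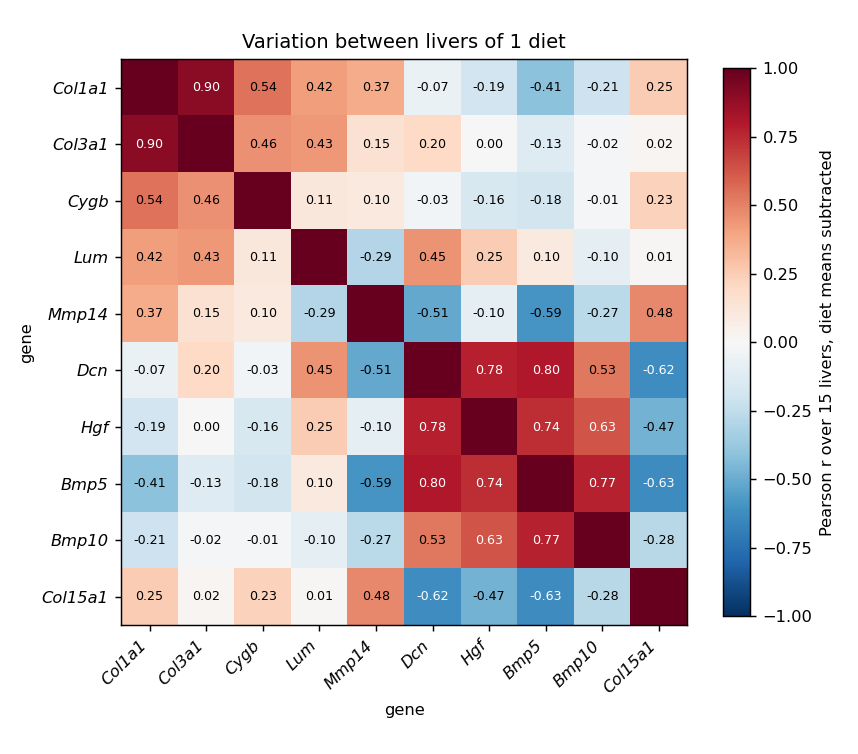
Pearson r (colour, and printed in each cell) between the 10 genes on both axes over 15 livers, with the mean of each diet subtracted. Col1a1 and Col3a1 form a close pair at 0.90. Dcn, Hgf, Bmp5 and Bmp10 have r between 0.53 and 0.80 with each other, and not all of these pairs passed after adjustment.

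The genes that varied most like these sets were sought among 11105 other genes with at least 1 CPM, as a description over the same 15 diet-centred libraries. The 3 highest values of so many are high by selection, and their size was not tested. Timp2, an inhibitor of metalloproteases (r = 0.82), Chaf1a, a chromatin assembly factor (r = 0.81), and Col1a2, the other chain of type I collagen (r = 0.79), were nearest to the mean of Col1a1 and Col3a1. Trove2, which encodes the Ro60 RNA-binding protein (r = 0.90), Ntm, a cell adhesion protein (r = 0.90), and Rgs5, a regulator of G protein signalling found in pericytes and stellate cells (r = 0.85), were nearest to Hgf. Colec10, a collectin of stellate cells (r = 0.90), Tmem47 (r = 0.88) and Adgrl4, an adhesion receptor of endothelium (r = 0.83), were nearest to Bmp5.

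Beyond the 10 genes, 11 lists of related genes were counted, with 167 of 190 listed genes tested and none of the 10 among them. On the ketogenic diet 27 rose and 18 fell compared with chow (16.2% and 10.8%), against 16.2% and 14.6% of all genes, and the median log2 fold change was 0.02, against -0.01 for all genes. On the high-fat diet 10 rose and 8 fell compared with chow (5.99% and 4.79%). Between the fat-rich diets 19 were higher and 12 lower on the ketogenic one (11.4% and 7.19%). These shares were near or under those of all genes, so the genes below describe single members of the lists and not the lists as wholes.

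Among 7 other fibrillar collagens tested, 3 fell on the ketogenic diet compared with chow. Col27a1 averaged 44.6 ± 7.79 normalised CPM with ketogenic feeding, 106 ± 30.8 with high-fat feeding and 131 ± 15.8 with chow (SD, n = 5 each; log2 fold change for ketogenic over chow -1.56 ± 0.19, adjusted p = 3.44e-05). Col5a3, a chain of type V collagen, averaged 20.6 ± 3.35, 45.6 ± 8.59 and 47.7 ± 7.25 on the same diets (-1.21 ± 0.14, adjusted p = 1.52e-05). No ketogenic liver reached the lowest chow liver for either gene. Col11a2 fell too, at low levels (0.311 ± 0.107 on the ketogenic diet and 0.747 ± 0.263 on chow, adjusted p = 0.00387). Col1a2, the partner of Col1a1, was not called in any comparison (-0.01 ± 0.14 for ketogenic over chow, adjusted p = 0.965). Of 14 basement membrane and other collagens, 1 rose on the ketogenic diet compared with chow, Col12a1, which coats fibrils (3.58 ± 0.780 CPM on the ketogenic diet and 1.79 ± 0.303 on chow, adjusted p = 0.000139). Col4a3, a chain of type IV collagen with few reads, was lower with the ketogenic than with the high-fat diet (0.188 ± 0.0641 and 0.375 ± 0.119 CPM, -0.97, adjusted p = 0.0399). Its chow mean was 0.179 ± 0.070 CPM, near the ketogenic one (0.04 for ketogenic over chow, adjusted p = 0.951). High-fat over chow was 1.01 and not called (adjusted p = 0.0556).

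Among 35 proteoglycans and matrix glycoproteins, 2 rose and 4 fell on the ketogenic diet compared with chow. Nid2, which links basement membrane networks, fell to 5.31 ± 0.903 CPM on the ketogenic diet and 8.42 ± 1.21 on the high-fat diet, against 11.9 ± 1.97 on chow (adjusted p = 2.9e-06 and 0.0137 over chow). Spon2, a secreted matrix protein, fell most on the high-fat diet (7.35 ± 1.49 with ketogenic feeding, 4.01 ± 1.04 with high-fat feeding and 10.3 ± 1.28 with chow, log2 fold change for high-fat over chow -1.36, adjusted p = 3.86e-05). Fn1, fibronectin, which hepatocytes also secrete, rose on both diets over chow (0.37, adjusted p = 0.00239, and 0.26, adjusted p = 0.0451). Agrn, agrin, fell on the ketogenic diet (-0.23, adjusted p = 0.0163). Of 22 genes of collagen processing, 3 rose and 2 fell on the ketogenic diet. P4hb, a disulfide isomerase that is also a subunit of prolyl hydroxylase, rose by 0.41 (adjusted p = 0.00127) and Plod1, a lysyl hydroxylase, by 0.29 (adjusted p = 0.00696). Ppib, a prolyl isomerase of the same compartment, was lower on both diets over chow (-0.47, adjusted p = 0.00304, and -0.34, adjusted p = 0.0415), and P3h1, a prolyl hydroxylase, rose on the high-fat diet over chow (0.33, adjusted p = 0.00789). The ketogenic value of P3h1 over chow was 0.20 (adjusted p = 0.054), and the fat-rich diets were not called different (adjusted p = 0.238).

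Of 15 matrix proteases and inhibitors tested, 3 rose and 2 fell on the ketogenic diet compared with chow. Timp3, a metalloprotease inhibitor bound to matrix, rose by 0.46 (adjusted p = 0.00195) and Adamts1, a secreted protease, by 0.72 (adjusted p = 0.00253). Reck, a membrane-anchored inhibitor of metalloproteases that include MMP14, averaged 2.77 ± 0.263 CPM with ketogenic feeding, 2.89 ± 1.17 with high-fat feeding and 5.37 ± 1.23 with chow (log2 fold changes over chow -0.96, adjusted p = 0.00338, and -0.90, adjusted p = 0.0121). Mmp2, the protease whose precursor MMP14 activates, fell by 0.59 on the log2 scale on the ketogenic diet (0.951 ± 0.257 CPM, against 1.43 ± 0.270 on chow, adjusted p = 0.0323).

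The ligands, receptors and antagonists of BMP and TGF-beta signalling were counted beside Bmp5 and Bmp10. Of 17 other genes for ligands and latent TGF-beta binding proteins, 5 rose and 2 fell on the ketogenic diet over chow. Inhbe and Inhbb, subunits of activins, rose on both diets. Inhbe averaged 70.8 ± 12.1 CPM with ketogenic feeding, 60.3 ± 15.1 with high-fat feeding and 30.3 ± 9.34 with chow (adjusted p = 0.000937 and 0.00951 over chow), and Inhbb 1.31 ± 0.412, 1.01 ± 0.255 and 0.385 ± 0.168 (adjusted p = 0.000239 and 0.00635). Bmp2, a ligand made by sinusoidal endothelium, and Gdf2, which encodes BMP9 and shares the receptor of BMP10, rose on the ketogenic diet over chow (0.48, adjusted p = 0.00171, and 0.34, adjusted p = 0.00614), and both were also higher than on the high-fat diet (0.41, adjusted p = 0.00732, and 0.35, adjusted p = 0.0075). Of 18 receptors and SMADs, 6 rose and 1 fell. The type I receptor Bmpr1a rose to 48.2 ± 6.34 CPM on the ketogenic diet, against 33.2 ± 2.29 on chow (0.54 ± 0.080, adjusted p = 5.69e-05). Smad1, which carries BMP signals, was lower on both diets (11.2 ± 0.673 with ketogenic feeding, 11.2 ± 1.13 with high-fat feeding and 14.8 ± 1.35 with chow, adjusted p = 0.000845 and 0.00255), while its relative Smad5 was higher on both (0.19, adjusted p = 0.0343, and 0.27, adjusted p = 0.00987). Tgfbr2, a TGF-beta receptor, fell on the high-fat diet (-0.46, adjusted p = 0.00987).

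Of 12 antagonists, 3 rose and 1 fell on the ketogenic diet over chow. Fst, follistatin, which binds activins and some BMPs, fell to 1.03 ± 0.335 CPM on the ketogenic diet and 2.01 ± 0.300 on the high-fat diet, against 3.12 ± 0.632 on chow (log2 fold changes -1.60 ± 0.19, adjusted p = 6.07e-06, and -0.63, adjusted p = 0.027). Smurf2, a ubiquitin ligase that acts on SMADs and receptors, rose by 0.36 on the ketogenic diet (adjusted p = 0.000234). Chrd, chordin, was lower and Fstl1 higher on the ketogenic than on the high-fat diet (-0.63, adjusted p = 0.00232, and 0.42, adjusted p = 0.0227). Of 11 target genes of the pathway, 2 rose on the ketogenic diet over chow. Tgfbi, a TGF-beta-induced matrix protein, averaged 32.7 ± 4.68 CPM with ketogenic feeding, 20.5 ± 1.28 with high-fat feeding and 20.6 ± 2.30 with chow (0.66 ± 0.091 over chow, adjusted p = 2.21e-05). Id1, a direct BMP target, was higher on the ketogenic than on the high-fat diet (1.14 ± 0.37, adjusted p = 0.0374) and was not called between the ketogenic diet and chow (0.03, adjusted p = 0.962).

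Of 10 genes around hepatocyte growth factor (its receptor and an adaptor, activators, inhibitors and a related ligand), 1 rose and 2 fell on the ketogenic diet over chow. The receptor gene Met averaged 104 ± 11.4 CPM with ketogenic feeding, 74.7 ± 5.37 with high-fat feeding and 66.3 ± 8.71 with chow (0.65 ± 0.090 over chow, adjusted p = 2.34e-05, and 0.48 over the high-fat diet, adjusted p = 0.000765). Ligand and receptor transcripts were thus both higher on the ketogenic diet than on either other diet. Spint2, an inhibitor of the proteases that activate the growth factor, fell to 29.4 ± 2.38 CPM on the ketogenic diet, against 38.8 ± 3.10 on chow (-0.40 ± 0.075, adjusted p = 0.000491). Hgfac, one of those activating proteases, fell as well (94.0 ± 3.95 and 115 ± 14.6 CPM, -0.30 ± 0.079, adjusted p = 0.00806). Among 6 ligands and receptors of PDGF, a growth factor for stellate cells, Pdgfra rose (0.48 ± 0.14, adjusted p = 0.0128) on the ketogenic diet over chow. Pdgfc fell on both diets over chow (-0.49 ± 0.11, adjusted p = 0.00186 on the ketogenic diet, and -0.57, adjusted p = 0.00208 on the high-fat diet), and Pdgfd was higher on the ketogenic than on the high-fat diet (0.51 ± 0.16, adjusted p = 0.0247).

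**Figure D4:**
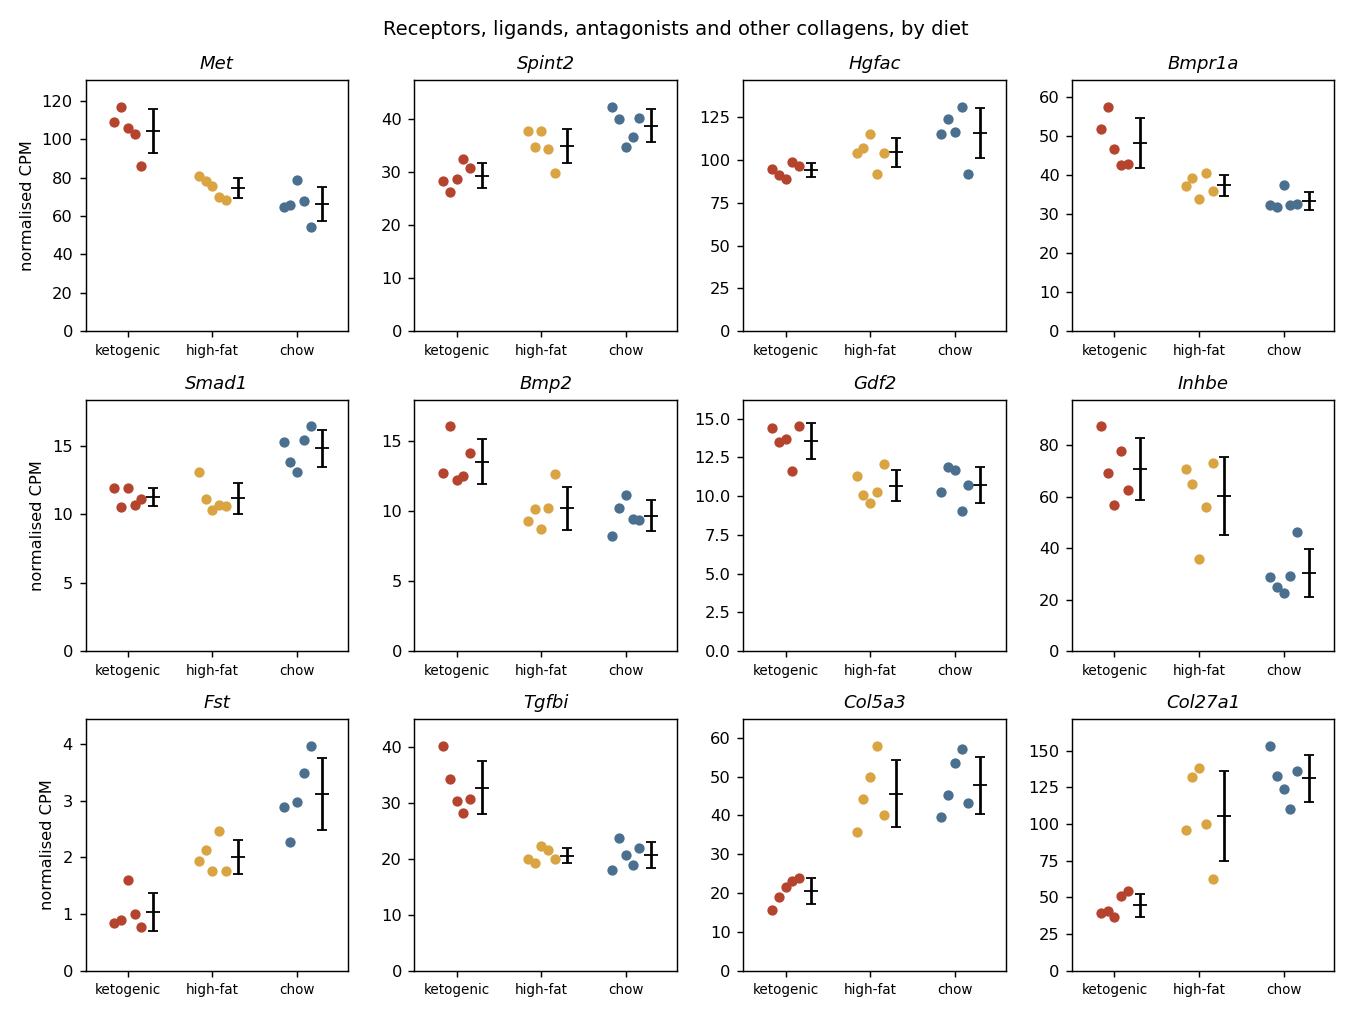
Normalised CPM (vertical axes, linear and starting at 0) in every liver for 12 genes of the hepatocyte growth factor, BMP and activin pathways and of the other fibrillar collagens, by diet (5 livers each). Points are livers and bars the mean ± SD. Ketogenic livers lie above all chow livers for Met, Bmpr1a, Bmp2, Inhbe and Tgfbi, and below all of them for Spint2, Smad1, Fst, Col5a3 and Col27a1.

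Markers of the cells that could supply these transcripts were read in the same libraries. All 18 stellate cell markers were tested and each had reads in every diet. Their summed level ranged between 232 and 279 CPM with ketogenic feeding, 218 and 275 with high-fat feeding and 203 and 285 with chow. Ecm1, named after its values were seen, held the largest part of that sum and was listed for matrix glycoproteins too. It averaged 80.4 ± 8.36, 76.2 ± 7.81 and 79.1 ± 12.6 CPM on the same diets. Of the 18 markers, 3 rose (Rgs5, Vipr1 and Colec11) and 2 fell (Ngfr and Pth1r) on the ketogenic diet over chow, with a median log2 fold change of 0.03. Lrat, the vitamin A esterifying enzyme that defines quiescent stellate cells, averaged 14.4 ± 3.46 CPM with ketogenic feeding, 17.3 ± 5.67 with high-fat feeding and 16.1 ± 5.65 with chow and was not called (adjusted p = 0.716 for ketogenic over chow). Acta2, the smooth muscle actin of activated stellate cells and vessels, averaged 1.08 ± 0.387, 0.999 ± 0.429 and 1.70 ± 1.56 CPM on the same diets and was not called either (adjusted p = 0.32). Its chow mean rests on chow liver 18, at 4.48 CPM, and without that liver it was 1.01 ± 0.234 (SD, n = 4). Of 9 markers of activated stellate cells and myofibroblasts, 2 rose on the ketogenic diet over chow, the other 7 had negative log2 fold changes that were not called, and the median was -0.29. The markers that rose were Tpm2, a tropomyosin, at 16.7 ± 2.16 CPM with ketogenic feeding, 4.52 ± 0.698 with high-fat feeding and 4.86 ± 0.591 with chow (1.78 ± 0.11, adjusted p = 4.95e-09), and Postn, periostin (0.38 ± 0.13, adjusted p = 0.0414). Tpm2, Postn and the 5 stellate markers that were called are named here because their counts were small, after their values were seen. The summed level of all 12 listed markers of activated cells was 47.7 to 57.9 CPM with ketogenic feeding, 36.8 to 49.1 with high-fat feeding and 42.4 to 54.0 with chow. Without Tpm2 the sum of the other 11 was 34.4 to 40.7, 32.4 to 44.7 and 37.4 to 48.2 CPM on the same diets, with medians of 37.1, 33.4 and 38.9, so the higher ketogenic sum rested on Tpm2. Spp1, also named after its values were seen, held the largest part of the sum of 11 and was listed for cholangiocytes too. It averaged 20.2 ± 1.77, 21.5 ± 5.14 and 24.7 ± 2.97 CPM on the same diets.

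Markers of other cells were read against the 16.2% of all genes that rose and the 14.6% that fell on the ketogenic diet over chow. All 6 erythroid markers tested fell on the ketogenic diet over chow, with a summed level of 338 to 555 CPM with ketogenic feeding, 400 to 1170 with high-fat feeding and 735 to 1080 with chow. Of 10 markers of T, B and natural killer cells, 5 fell (4.58 to 6.03, 7.64 to 11.4 and 7.19 to 17.5 CPM summed on the same diets). These were the B cell genes Cd79a, Ms4a1, Ighm and Igkc, and Cd4, named after their values were seen. The B cell gene Cd79b was not called (-0.46). Nor were Cd3e (-0.03), Cd3g (0.13), Cd8a (0.41) and Klrb1c (0.44), of T and natural killer cells. Of 11 Kupffer cell and macrophage markers, 1 rose over chow (9.09%) and 4 were higher than on the high-fat diet (36.4%, against 13.1% of all genes; 164 to 246, 129 to 215 and 161 to 201 CPM summed). Of 12 markers of sinusoidal endothelium, which makes Hgf and BMP ligands too, 2 rose over chow, Bmp2 among them (16.7%, near the share of all genes; 284 to 332, 254 to 383 and 228 to 334 CPM summed). The median log2 fold change of these 12 for ketogenic over chow was 0.22, against -0.01 for all genes. Of 9 markers of portal fibroblasts and mesothelium, 0 were called on the ketogenic diet over chow. Pi16, the 1 called in the other comparisons and named after its values were seen, fell on the high-fat diet over chow (-1.18, adjusted p = 0.0103). It was higher on the ketogenic than on the high-fat diet (1.06, adjusted p = 0.011). Of 4 vascular smooth muscle and 8 vascular endothelium markers, 0 were called in any comparison. Their median log2 fold changes for ketogenic over chow were -0.26 and 0.15. The part of all these cells in the changes of the 10 genes was not tested.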

How the data were processed

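Total RNA of 15 livers (Trizol, per the labels' protocols) was sequenced. Per the submitters' processing notes, Trimmomatic 0.36, kallisto 0.44, edgeR 3.28 and build GRCm38.p6 were used, with no settings named. The authors deposited an estimated count and a TPM per transcript, per the file headers. The annotation release is not given in these sources, and GENCODE M21 matched 105734 of 106332 transcripts. The other 598, with 0.184 to 0.223% of reads, were left out.

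Estimated counts were summed per gene and rounded. edgeR 4.0.16 (filterByExpr with minimum count 10 and total 15, TMM, robust quasi-likelihood F test, all 15 libraries in 1 fit, Benjamini-Hochberg over 13967 genes, threshold 0.05) gave every fold change. Standard errors are the log2 fold change over the square root of F. Normalised CPM used TMM library sizes, and correlations used log2 CPM with a prior count of 2. The script was tested on simulated data. Replicate libraries differed by more than counting noise (chi-square per degree of freedom 17.1 to 104.2 over 30 pairs). The range of 30121672 to 50914494 reads per library limits genes with few reads, such as Col1a1.

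Alternatives were 8 other settings (RLE factors, DESeq2 1.42.0, no filter, at least 1 CPM in 5 libraries, total-count scaling, an effective-length offset, protein-coding transcripts only, 2 diets only) and the omission of each library. The members and lists were chosen with earlier results of these data known. Named besides the members were up to 4 genes per list with the smallest adjusted p under 0.05, the 3 genes most like each of 3 patterns, Lrat and Acta2. Genes named outside this rule are marked as such, Col1a2 among them where it is set beside Col1a1. A gene that the rule names is not reported here.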

Additional observations from a re-analysis of the deposited data

Results flagged for a closer look

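In each of 30 groups of 5 livers (10 genes by 3 diets), the most extreme liver was compared with the others, and chance flags about 1 group in 20. Col1a1 in chow liver 18, at 4.65 normalised CPM, stood far from the other chow livers, which lay between 1.73 and 2.19, and the gap was 0.843 of the range of the group (critical value 0.71). Lum in chow liver 17, at 5.03 normalised CPM, stood below the other chow livers, which lay between 6.07 and 6.42, with a gap of 0.746 of the range. Chow liver 18 also had the highest Col3a1, Mmp14 and Col15a1 of its diet. No cause was tested.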

How the results depend on the processing

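The number of the 10 genes called on the high-fat diet over chow was 3 and ranged between 1 and 3 when each library was left out in turn, with 1 without high-fat liver 11 and 1 without high-fat liver 12. Of 690 values of single genes under 23 alternatives, 646 kept their direction and their side of the threshold, 33 lost and 3 gained a call, and 8, none of them called in either setting, changed sign. Leaving out each library in turn gave log2 fold changes of -0.256 to 0.181 for Col1a1 with ketogenic over chow (positive without chow liver 18). For high-fat over chow they were -0.479 to 0.019 for Col1a1 (positive without chow liver 18), -0.145 to 0.012 for Bmp10 (positive without chow liver 16 or 17) and -0.039 to 0.209 for Hgf (negative without chow liver 15). For Col3a1 with ketogenic over high-fat they were -0.035 to 0.189 (negative without ketogenic liver 8 or high-fat liver 10), and the effective-length offset gave -0.089. The cause was not tested. Calls that held under all 23 were Hgf, Bmp10, Lum and Mmp14 for ketogenic over chow, Col15a1 for high-fat over chow, and Lum, Dcn, Mmp14, Bmp10, Hgf and Cygb for ketogenic over high-fat. No paired analysis was possible because the replicate numbers do not recur between diets. Depth limits the genes with few reads, such as Col15a1 and Col1a1, with as few as 30 and 41 reads in a library.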
